A study of Mus with 10 samples.

Results

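The collagen gene family was followed across 10 skin arrays. Its members were all genes whose symbol is Col, a number, the letter a and a number, and 44 such genes were found among the 22180 genes measured with 1 symbol. By the structure of the protein, 11 encode chains of fibrillar collagens, 6 encode chains of type IV, the collagen of basement membranes, and 27 belong to other types. The skin came from female BALB/c mice aged 7-8 weeks, in 3 groups: 4 arrays with a gap of 7 days after PUVA (7-day skin), 4 with a gap of 3 days (3-day skin) and 2 controls. In PUVA, UVA light activates psoralen, a drug that binds and crosslinks DNA. Per the labels, psoralen was put on the skin, and UVA at 0.25 J/cm2 was given 2 times a week for 2 weeks. Imiquimod, an immune-activating drug that gives psoriasis-like dermatitis in mice, belongs to the study's protocol. Whether it had been applied to the skin on these arrays, and what the controls were given, is not clear from the labels. The gap is therefore given as labelled. Nothing in the labels but the numbers in the titles bears on whether each array is a separate animal, so p-values measure only how much these samples differ from each other, in part perhaps for technical reasons.

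Collagens are built from alpha chains in which glycine recurs at regular steps, so that the chains can coil around each other into a rope-like helix. In the dermis, fibroblasts secrete types I, III and V as procollagens, which are trimmed and assembled into shared fibrils that give skin its strength. Type IV chains form sheet-like networks under the epidermis and around vessels, type VI forms beaded filaments near these networks, and types VII and XVII fasten the epidermis to the dermis. Ultraviolet light is known to lower procollagen synthesis in human skin.

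All values are log2 probe set values from the deposited table, in which 1 unit is a doubling. Array medians lay at 5.83 to 5.86, and lower quartiles at 4.17 to 4.23. No collagen gene lay below the lower quartile on all 10 arrays, and 2, Col6a4 and Col19a1, did on some. Of the 44 genes, 26 lay above the array median on every array and 9 below it on every array. A level can be compared between samples for 1 gene, but not between genes, since probe sets differ in brightness. Markers of the epidermis were bright on every array: the mean of 5 keratinocyte genes, Krt14 and Krt10 among them, was 11.64 to 11.96 over the 10 arrays. The 2 controls lay far apart for many collagens and for hair genes. The mean of 8 hair follicle markers was 5.05 to 5.21 in 7-day skin, 4.91 to 5.44 in 3-day skin, and 6.36 and 8.71 in control replicates 1 and 2. Many log2 changes against control depended on which control was used, and values with each control left out are given beside those of the main collagen genes.

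The 6 chains of collagen types I, III and V lay lower in 7-day skin than in 3-day skin, with log2 differences of -0.92 to -0.44. Of all fibrillar genes 9 of 11 lay below 0, and of the type VI genes 6 of 6, against 10379 of all 22180 genes. No collagen gene passed an adjusted p of 0.05 in limma in this comparison, where 0.00902% of all genes did. At an unadjusted p under 0.05, 17 of 44 collagen genes (38.6%) were lower and 0 higher, against 4.43% of all genes lower and 5.33% higher. The 7-day and 3-day arrays were fully separate for 12 collagen genes lower at 7 days and 1 higher, against 2.28% and 2.95% of all genes. The median log2 difference was -0.17 over the 44 genes and 0.01 over all 22180. By type it was -0.44 for the fibrillar, 0.01 for the type IV and -0.15 for the other collagens. The count of 17 stayed between 15 and 18 when each array in turn was left out.

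Against control, collagen genes lay mostly higher in 3-day skin and on both sides of 0 in 7-day skin. In 3-day skin 33 of 44 genes lay above control with a median log2 change of 0.11, while over all genes the median was 0.00 and 50.6% lay above. In 7-day skin 21 lay above and 23 below, with a median of -0.02, and over all genes 55.0% lay above. No collagen gene passed an adjusted p of 0.05 in limma against control, where 0.0% of all genes passed for 7-day and 0.00451% for 3-day skin. At an unadjusted p under 0.05, 1 collagen gene was higher and 2 were lower in 7-day skin, against 3.21% and 2.68% of all genes, which is close to the background. With only the groups compared 3 were higher and 1 lower, and without control replicate 1 the lower genes were 5. In 3-day skin 13 (29.5%) were higher and 0 lower, against 5.67% and 4.07% of all genes. That count of 13 depended on a control: it was 3 without control replicate 1 and 14 without control replicate 2. Arrays did not overlap with both controls for 4 collagen genes higher and 3 lower in 7-day skin, against 8.56% and 5.85% of all genes, and for 8 higher and 2 lower in 3-day skin, against 9.52% and 7.89%. The 3 comparisons share arrays with each other, so their results are not independent.

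**Figure D1:**
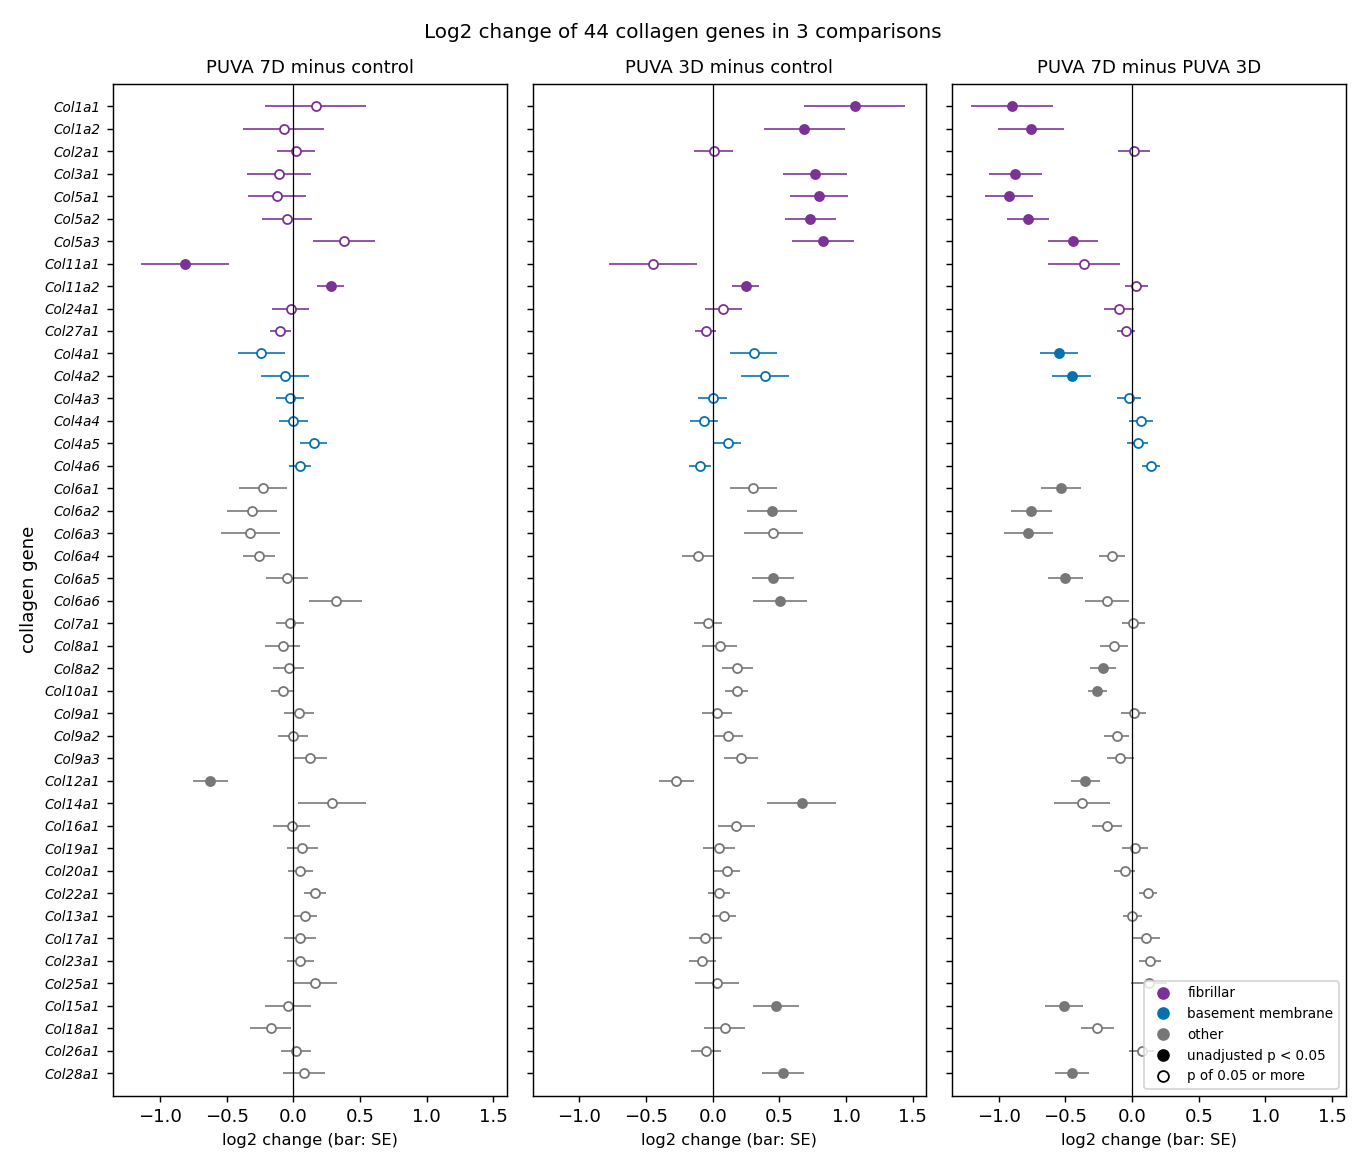
Log2 change of each of the 44 collagen genes in 3 comparisons (x axis), with genes down the page by type. Bars are standard errors of the limma fit, and filled points have an unadjusted p under 0.05. In the right panel 17 genes are filled, all left of 0, and in the middle panel 13 are filled, all right of 0.

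Type I collagen, made of chains from Col1a1 and Col1a2, is the main fibril of the dermis. Col1a1 had log2 values of 10.99, 10.51, 11.52 and 11.68 in 7-day skin, 11.67, 12.41, 12.22 and 11.99 in 3-day skin, and 10.38 and 11.63 in control skin. The lowest 3-day array and the highest 7-day array met at nearly the same value, and control replicate 1 was the lowest of all arrays. Col1a2 was likewise highest on average in 3-day skin, with 11.25, 10.94, 11.51 and 11.54 in 7-day skin, 11.49, 12.37, 12.28 and 12.12 in 3-day skin, and 10.87 and 11.89 in control skin. The log2 difference of 7-day from 3-day skin was -0.90 ± 0.31 (SE) for Col1a1 and -0.76 ± 0.25 for Col1a2, with adjusted p of 0.428 and 0.404 in limma. In 3-day skin against control, Col1a1 had a log2 change of 1.07 ± 0.38 and Col1a2 of 0.69 ± 0.30, with adjusted p of 0.436 and 0.505. These changes were 0.44 and 0.18 without control replicate 1, and 1.69 and 1.20 without control replicate 2. For 7-day skin against control, Col1a1 had 0.17 ± 0.38 and Col1a2 -0.07 ± 0.30, and the sign of each depended on the control: -0.46 and -0.58 without replicate 1, and 0.79 and 0.44 without replicate 2.

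Col3a1 encodes the single chain of type III collagen, which shares fibrils with type I in skin and is abundant in healing wounds. Its log2 values were 11.16, 10.70, 11.03 and 11.06 in 7-day skin, 11.43, 12.16, 11.91 and 11.94 in 3-day skin, and 10.66 and 11.52 in control skin. All 3-day arrays lay above all 7-day arrays, while control replicate 1 lay just below the 7-day range, and control replicate 2 lay inside the 3-day range. The log2 difference between 7-day and 3-day skin was -0.87 ± 0.20 (adjusted p = 0.243, limma), or 0.546 times the 3-day level. Against control the log2 changes were -0.11 ± 0.24 in 7-day skin and 0.77 ± 0.24 in 3-day skin. Without control replicate 1 they were -0.54 and 0.34, and without control replicate 2 they were 0.32 and 1.20, so the 7-day change turned its sign.

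Type V collagen is a minor part of dermal fibrils that starts their assembly and limits their width. Col5a1, its main chain, had the smallest p of the family between the PUVA groups, by its brighter probe set. It had log2 values of 8.13, 7.81, 8.14 and 8.40 in 7-day skin, 8.81, 9.45, 8.92 and 8.99 in 3-day skin, and 7.93 and 8.56 in control skin, and 3-day arrays lay above all others. The log2 difference of 7-day from 3-day skin was -0.92 ± 0.18 (adjusted p = 0.195, limma), or 0.528 times the 3-day level. Col5a2, its partner chain, had 8.66, 8.40, 8.61 and 8.58 in 7-day skin, 8.88, 9.70, 9.51 and 9.27 in 3-day skin, and 8.47 and 8.74 in control skin. Here too the 3-day arrays lay above all others, with a log2 difference of -0.78 ± 0.15 between 7-day and 3-day skin (adjusted p = 0.206). Without 3-day replicate 1, which lay closest to the 7-day arrays, Col5a2 passed in limma, at -0.93 ± 0.12 (adjusted p = 0.0459).

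The 3-day group was higher than control in both chains, with log2 changes of 0.80 ± 0.22 for Col5a1 and 0.73 ± 0.19 for Col5a2 (adjusted p of 0.319 and 0.303, limma). They were 0.48 and 0.60 without control replicate 1, and 1.11 and 0.87 without control replicate 2. In 7-day skin the changes were -0.12 ± 0.22 and -0.05 ± 0.19, with no settled sign: -0.44 and -0.18 without control replicate 1, and 0.19 and 0.09 without control replicate 2. Col5a3, a chain found in fewer tissues, differed in that both PUVA groups lay above both controls. Its log2 values were 7.73, 7.46, 7.75 and 7.84 in 7-day skin, 7.93, 8.81, 7.89 and 7.91 in 3-day skin, and 7.36 and 7.26 in control skin. The changes against control were 0.38 ± 0.23 in 7-day and 0.82 ± 0.23 in 3-day skin, with adjusted p of 0.915 and 0.322 in limma. The log2 difference of 7-day from 3-day skin was -0.44 ± 0.19, and -0.22 without 3-day replicate 2, the brightest array.

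**Figure D2:**
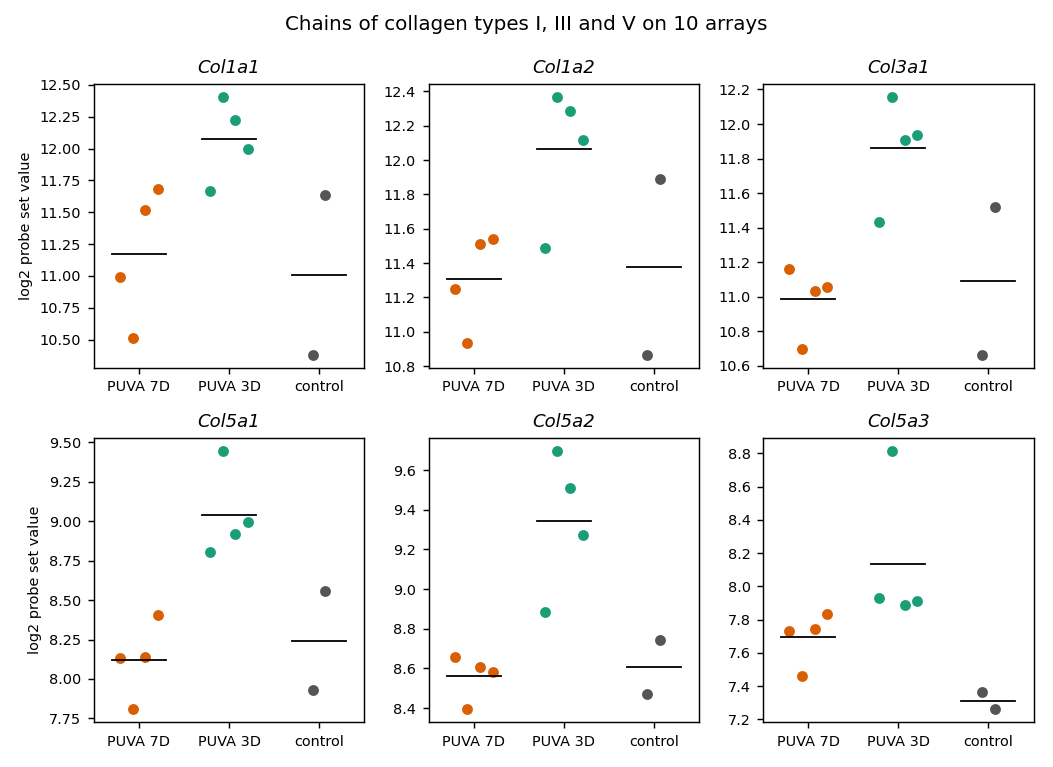
Log2 probe set values (y axis, a separate range for each gene) of the 6 chains of collagen types I, III and V on each array, by group (x axis). Points are arrays and lines are group means, with 4 arrays in 7-day, 4 in 3-day and 2 in control skin. For Col3a1, Col5a1, Col5a2 and Col5a3 every 3-day point lies above every 7-day point, and the 2 control points of Col1a1, at 10.38 and 11.63, span most of the 7-day range.

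Fibroblast markers lay in the same direction with smaller differences. The mean of 8 such genes, Pdgfra, Dpt and Dcn among them, was 10.13 to 10.51 in 7-day skin, 10.45 to 10.78 in 3-day skin and 10.30 to 10.47 in control skin. All 8 had log2 differences below 0 between 7-day and 3-day skin, with a median of -0.29 and 1 of 8 lower at an unadjusted p under 0.05, against 4.43% of all genes. The median was -0.14 without 3-day replicate 2 and -0.15 without 7-day replicate 2. All 8 lay above 0 in 3-day skin against control, with a median of 0.23. None of them lay below the lower quartile on any array. In bulk skin, fewer fibroblasts and less collagen RNA per fibroblast cannot be told apart. Keratinocyte markers had log2 differences above 0 in 5 of 5 genes between 7-day and 3-day skin, with a median of 0.13, which was 0.20 without 3-day replicate 1 and 0.08 without 3-day replicate 2. Their part in the collagen results was not tested.

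The remaining fibrillar genes encode chains of cartilage or of minor fibrils. Col2a1, the main collagen of cartilage, had a log2 difference of 0.01 ± 0.12 between 7-day and 3-day skin, and Col24a1 and Col27a1 had -0.10 ± 0.11 and -0.05 ± 0.07. Col11a1, which forms cartilage fibrils with Col2a1, stood out by 1 array. It had log2 values of 5.10, 5.04, 4.94 and 5.06 in 7-day skin, 5.05, 5.43, 5.71 and 5.39 in 3-day skin, and 5.06 and 6.63 in control replicates 1 and 2. Its log2 change in 7-day skin against control was -0.81 ± 0.33 (adjusted p = 0.822, limma). It was -0.02 without control replicate 2, and -1.60 ± 0.19 with an adjusted p of 0.00434 without control replicate 1, where the spread of the 1 control left is taken from the PUVA groups. In 3-day skin the change was -0.45 ± 0.33, and it turned to 0.34 without control replicate 2 and was -1.24 (adjusted p = 0.0207) without control replicate 1. Control replicate 2 was also the array with the brightest hair markers. Col11a2, a partner chain, had 5.40, 5.40, 5.52 and 5.62 in 7-day skin, 5.52, 5.38, 5.60 and 5.31 in 3-day skin, and 5.24 and 5.17 in control skin. Both PUVA groups lay above both controls, with log2 changes of 0.28 ± 0.10 and 0.25 ± 0.10 (adjusted p of 0.785 and 0.493).

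**Figure D3:**
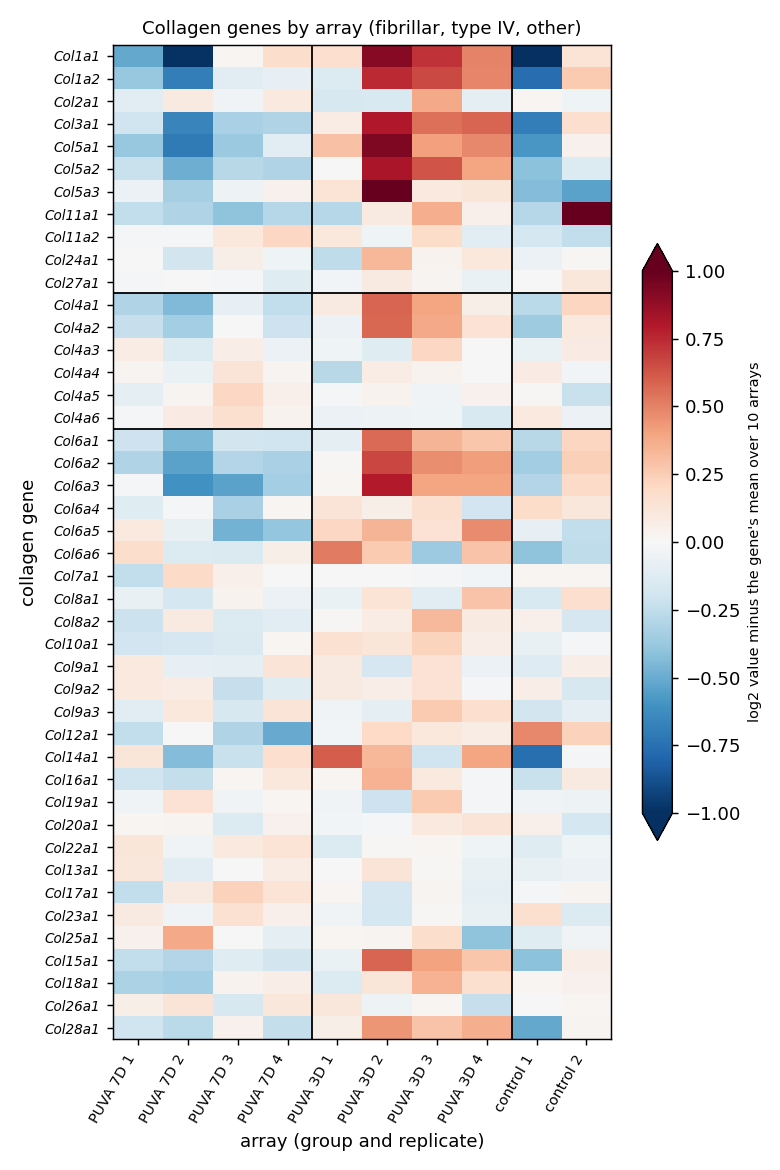
Each cell is the log2 value of a collagen gene (rows, by type) on an array (columns, by group) minus the mean of that gene over the 10 arrays, red where higher and blue where lower. Colours end at 1 unit. The 3-day arrays 2, 3 and 4 are the reddest for Col1a1, Col1a2, Col3a1, Col5a1, Col5a2, Col6a1, Col6a2 and Col6a3, and Col11a1 is red in control 2.

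Arrays of a group were not alike across the family. In 3-day replicate 1 the median deviation of the 11 fibrillar genes from their means over 10 arrays was 0.00, against 0.75, 0.38 and 0.12 in 3-day replicates 2, 3 and 4. The 7-day arrays had -0.20, -0.34, -0.05 and -0.09, and the controls -0.41 and 0.04. Thus control replicate 1 lay below every 7-day array for this type, and control replicate 2 among the lower 3-day arrays. For the 6 type IV genes the same medians ran from -0.10 to 0.10 in 7-day skin, from -0.05 to 0.12 in 3-day skin, and were -0.03 and 0.03 in the controls.

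Type VI collagen forms beaded filaments that link cells and basement membranes to fibrils. Its 3 classical chains come from Col6a1, Col6a2 and Col6a3. Col6a1 had log2 values of 10.17, 9.93, 10.19 and 10.18 in 7-day skin, 10.29, 10.94, 10.72 and 10.66 in 3-day skin, and 10.10 and 10.59 in control skin. Col6a2 had 9.10, 8.86, 9.10 and 9.07 in 7-day skin, 9.41, 10.06, 9.86 and 9.82 in 3-day skin, and 9.05 and 9.63 in control skin. Col6a3 had 9.67, 9.09, 9.16 and 9.36 in 7-day skin, 9.71, 10.49, 10.09 and 10.09 in 3-day skin, and 9.40 and 9.89 in control skin. In all 3 genes the 7-day arrays lay below the 3-day arrays without overlap, with control replicate 1 inside the 7-day range and control replicate 2 inside the 3-day range. The log2 differences of 7-day from 3-day skin were -0.53 ± 0.15, -0.76 ± 0.15 and -0.78 ± 0.18, with adjusted p of 0.312, 0.213 and 0.248 in limma. Against control they lay at -0.23, -0.31 and -0.32 in 7-day skin, and at 0.31, 0.45 and 0.45 in 3-day skin. Without control replicate 1 the 3-day changes were 0.06, 0.16 and 0.21, and without control replicate 2 they were 0.55, 0.74 and 0.70. The 7-day changes were -0.48, -0.60 and -0.57 without control replicate 1, and close to 0 without control replicate 2, at 0.02, -0.02 and -0.08.

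The alternative type VI chains from Col6a4, Col6a5 and Col6a6 did not share 1 pattern. Col6a5 had a log2 difference of -0.50 ± 0.13 between 7-day and 3-day skin (adjusted p = 0.283) without overlap of the arrays, which ran from 5.02 to 5.58 at 7 days and from 5.63 to 5.96 at 3 days. Col6a6 had -0.19 ± 0.16, with log2 changes of 0.32 ± 0.20 in 7-day and 0.51 ± 0.20 in 3-day skin against control. Col6a4 was dim, at 4.34, 4.45, 4.14 and 4.48 in 7-day skin, 4.59, 4.52, 4.62 and 4.27 in 3-day skin, and 4.65 and 4.57 in control skin. Its 7-day arrays lay below both controls, by a log2 change of -0.26 ± 0.12 (adjusted p = 0.849, limma). All 6 type VI genes had a 7-day level below the 3-day level, with a median log2 difference of -0.52.

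Type IV collagen is the scaffold of basement membranes, and its chains assemble in fixed sets. Col4a1 and Col4a2 encode the set present in nearly all basement membranes, those of vessels included. Col4a1 had log2 values of 7.68, 7.54, 7.90 and 7.74 in 7-day skin, 8.07, 8.56, 8.38 and 8.04 in 3-day skin, and 7.72 and 8.20 in control skin. Col4a2 had 7.46, 7.35, 7.70 and 7.49 in 7-day skin, 7.64, 8.27, 8.08 and 7.84 in 3-day skin, and 7.34 and 7.79 in control skin. Arrays of the PUVA groups were separate for Col4a1 and met for Col4a2. The log2 differences of 7-day from 3-day skin were -0.55 ± 0.14 for Col4a1 and -0.45 ± 0.15 for Col4a2, with adjusted p of 0.294 and 0.393 in limma. The other chains did not share this pattern: Col4a3, Col4a4 and Col4a5 had -0.02 ± 0.09, 0.07 ± 0.09 and 0.04 ± 0.08, and Col4a6 had 0.14 ± 0.07. Col4a6, which pairs with Col4a5 under the epidermis, was the 1 collagen gene whose 7-day arrays, 5.05 to 5.23, all lay above the 3-day arrays, 4.92 to 5.02. The whole type therefore had a median near 0, and Col4a1 and Col4a2 apart from it lay close to the fibrillar genes in sign.

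Against control, Col4a1 had log2 changes of -0.24 ± 0.18 in 7-day and 0.31 ± 0.18 in 3-day skin, and Col4a2 had -0.06 ± 0.18 and 0.39 ± 0.18. In 3-day skin they were 0.07 and 0.16 without control replicate 1, and 0.55 and 0.62 without control replicate 2. In 7-day skin they were -0.48 and -0.29 without control replicate 1, and 0.00 and 0.16 without control replicate 2. The mean of 6 endothelial markers, Pecam1 and Cdh5 among them, was 8.55 to 8.64 in 7-day skin, 8.59 to 8.71 in 3-day skin and 8.38 to 8.48 in control skin. All 6 had log2 differences below 0 between 7-day and 3-day skin, with a median of -0.09, and their part in the type IV values was not tested. Col15a1 and Col18a1 encode collagens of the basement membrane zone with long interrupted helices. Col15a1 lay at 7.36 to 7.53 in 7-day skin and at 7.59 to 8.23 in 3-day skin, against 7.24 and 7.72 in control skin. Its log2 difference between 7-day and 3-day skin was -0.51 ± 0.14 (adjusted p = 0.311) and that of Col18a1, the source of endostatin, was -0.26 ± 0.13 (adjusted p = 0.539).

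Collagens of the junction between epidermis and dermis had mean log2 changes within 0.11 of 0 in all comparisons. Col7a1, which encodes the anchoring fibrils, had log2 values of 7.20, 7.63, 7.49 and 7.44 in 7-day skin, 7.45, 7.43, 7.43 and 7.41 in 3-day skin, and 7.46 and 7.46 in control skin. Col17a1, a transmembrane collagen of hemidesmosomes made by basal keratinocytes, had 10.15, 10.48, 10.62 and 10.53 in 7-day skin, 10.41, 10.22, 10.42 and 10.30 in 3-day skin, and 10.37 and 10.42 in control skin. The 7-day arrays were the most spread in both genes and took in the others. The log2 differences of 7-day from 3-day skin were 0.01 ± 0.09 for Col7a1 and 0.11 ± 0.10 for Col17a1 (adjusted p of 0.984 and 0.759, limma). Against control Col7a1 had -0.02 ± 0.11 and -0.03 ± 0.11 in 7-day and 3-day skin, and Col17a1 had 0.05 ± 0.12 and -0.06 ± 0.12. The other transmembrane genes, Col13a1, Col23a1 and Col25a1, had log2 differences of 0.00 ± 0.07, 0.13 ± 0.08 and 0.13 ± 0.13.

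**Figure D4:**
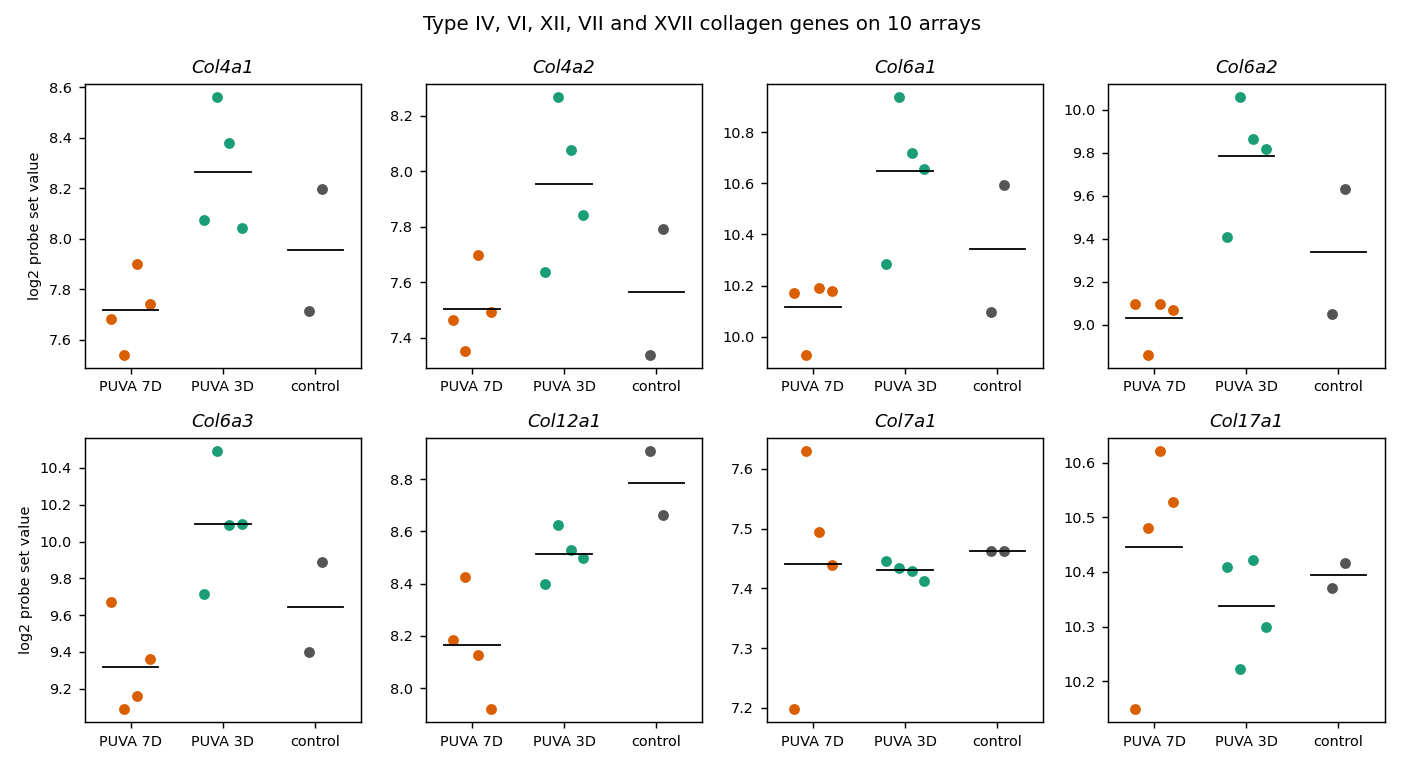
Log2 probe set values (y axis, a separate range for each gene) of 8 collagen genes of types IV, VI, XII, VII and XVII on each array, by group (x axis). Points are arrays and lines are group means. The 7-day points lie below the 3-day points for Col4a1, Col6a1, Col6a2 and Col6a3, the control points of Col12a1, 8.91 and 8.66, lie at the top, and the groups overlap for Col17a1.

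Fibril-associated collagens sit on the surface of fibrils and do not form them. Col12a1, found on fibrils of dense tissue and under tension, was the family's smallest p between 7-day and control skin. It had log2 values of 8.18, 8.42, 8.13 and 7.92 in 7-day skin, 8.40, 8.63, 8.53 and 8.50 in 3-day skin, and 8.91 and 8.66 in control skin. Every PUVA array lay below both controls, and the 7-day mean was the lowest. The log2 changes against control were -0.62 ± 0.13 in 7-day skin (adjusted p = 0.71, limma), or 0.65 times the control level, and -0.27 ± 0.13 in 3-day skin (adjusted p = 0.543). In 7-day skin the change was -0.50 without control replicate 1 and -0.74 without control replicate 2, and in 3-day skin -0.15 and -0.39. Between 7-day and 3-day skin the log2 difference was -0.35 ± 0.11 (adjusted p = 0.367). Col12a1 was thus below 0 in all 3 comparisons, as were Col6a4, Col11a1 and Col27a1, and Col4a3 by a very small margin. The chains of types I, III and V instead lay above 0 in 3-day skin against control.

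Col14a1, another collagen on the fibril surface, had 9.02, 8.47, 8.68 and 9.06 in 7-day skin, 9.50, 9.23, 8.70 and 9.30 in 3-day skin, and 8.14 and 8.89 in control skin. The groups overlapped. Its log2 change in 3-day skin against control was 0.67 ± 0.26 (adjusted p = 0.46, limma), and 0.29 without control replicate 1 and 1.04 without control replicate 2. In 7-day skin against control it was 0.29 ± 0.26, and -0.08 without control replicate 1 and 0.66 without control replicate 2. Between 7-day and 3-day skin the log2 difference was -0.38 ± 0.21. Col22a1, a collagen of tissue junctions such as muscle to tendon, had 5.64, 5.48, 5.61 and 5.65 in 7-day skin, 5.38, 5.53, 5.54 and 5.48 in 3-day skin, and 5.40 and 5.48 in control skin, with a log2 change of 0.16 ± 0.08 in 7-day skin against control (adjusted p = 0.887). The other 6 genes of this kind, Col9a1, Col9a2, Col9a3, Col16a1, Col19a1 and Col20a1, had differences between 7-day and 3-day skin of -0.19 to 0.02, none at an unadjusted p under 0.05.

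Of the last genes, Col8a1, Col8a2 and Col10a1 encode short chains that form hexagonal networks, the last best known from growth plate cartilage. Their log2 differences of 7-day from 3-day skin were -0.13 ± 0.11, -0.22 ± 0.10 and -0.26 ± 0.07 (adjusted p of 0.706, 0.499 and 0.309, limma). Col10a1 lay at 4.65 to 4.87 in 7-day skin, 4.91 to 5.06 in 3-day skin, and 4.77 and 4.83 in control skin, without overlap of the PUVA groups. Col28a1, known from peripheral nerve in mice, had 5.22, 5.15, 5.46 and 5.18 in 7-day skin, 5.48, 5.86, 5.70 and 5.78 in 3-day skin, and 4.90 and 5.45 in control skin. The 3-day arrays lay above all others, with a log2 difference of -0.45 ± 0.13 between 7-day and 3-day skin (adjusted p = 0.335) and a change of 0.53 ± 0.16 in 3-day skin against control (adjusted p = 0.354). That change was 0.26 without control replicate 1 and 0.80 without control replicate 2. The mean of 4 Schwann cell markers was 6.77 to 7.12 in 7-day skin, 6.95 to 7.17 in 3-day skin and 6.72 to 6.75 in control skin. Their log2 changes lay above 0 in 3-day skin against control, with a median of 0.32. Between 7-day and 3-day skin the median was -0.14 (-0.07 without 7-day replicate 1), with Cdh19 at 0 to 2 decimals and the other 3 below 0. Mbp and Mal, myelin genes, had log2 differences of -0.14 and -0.37 between 7-day and 3-day skin. Their part in the Col28a1 values was not tested. Col26a1 had 0.07 ± 0.09 between 7-day and 3-day skin.

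Genes that fold and modify collagen chains in the cell lay in the same direction as the fibrillar collagens. Of 23 such genes written into a list, 21 were measured. Between 7-day and 3-day skin 19 lay below 0 with a median log2 difference of -0.23, and 10 were lower and 0 higher at an unadjusted p under 0.05, against 4.43% and 5.33% of all genes. None passed an adjusted p of 0.05. The count of 10 was 6 without 3-day replicate 2, where the median was -0.13, also 6 without 7-day replicate 2, and 13 without 3-day replicate 1. Kdelr3, a receptor that returns chaperones to the endoplasmic reticulum, had 7.62, 7.08, 7.16 and 7.36 in 7-day skin, 7.74, 8.67, 8.15 and 8.42 in 3-day skin, and 7.26 and 7.75 in control skin. Its log2 difference was -0.94 ± 0.20 between 7-day and 3-day skin (adjusted p = 0.23, limma). P3h1, a collagen prolyl hydroxylase, had -0.61 ± 0.15 and Plod1, a lysyl hydroxylase, -0.48 ± 0.15. In 3-day skin against control 20 of 21 lay above 0, with a median of 0.21 and 4 higher at an unadjusted p under 0.05, against 5.67% of all genes. Among them were Creb3l1, a transcription factor that drives collagen genes in bone of mice, at 0.93 ± 0.29, Kdelr3 at 0.74 ± 0.24 and Fkbp14, an isomerase of the collagen chaperone system, at 0.66 ± 0.27. Without control replicate 1 that count of 4 was 0. In 7-day skin against control 14 lay below 0, with a median of -0.07 (-0.01 without control replicate 2) and none at an unadjusted p under 0.05. P3h2, at 0.27 ± 0.15, Creb3l1, at 0.46 ± 0.29, and P3h1, at -0.25 ± 0.19, had the smallest p there.

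Genes for trimming procollagen and crosslinking fibrils had 14 of 16 measured. Between 7-day and 3-day skin 12 lay below 0, with a median of -0.36 and 5 lower at an unadjusted p under 0.05, against 4.43% of all genes. The median was -0.17 without 3-day replicate 2. The smallest p belonged to Lox, the lysyl oxidase that crosslinks collagen and elastin, at -0.91 ± 0.18 (adjusted p = 0.197, limma). It had log2 values of 8.90, 9.06, 9.09 and 9.15 in 7-day skin, 9.55, 10.40, 10.19 and 9.69 in 3-day skin, and 8.77 and 9.18 in control skin, so the 3-day arrays lay above all others. Bmp1, which removes the procollagen end peptide, had -0.48 ± 0.14, and Loxl4, a lysyl oxidase relative, -0.46 ± 0.13. In 3-day skin against control 12 of 14 lay above 0, with a median of 0.33 and 6 higher at an unadjusted p under 0.05, against 5.67% of all genes. Lox had 0.98 ± 0.22 (adjusted p = 0.223), Loxl1, a relative needed for elastic fibres, 0.85 ± 0.24 and Loxl4 0.53 ± 0.16. Without control replicate 1 the median was 0.18 and the count of 6 was 2. In 7-day skin against control the median was 0.07 (0.02 without control replicate 1), with 8 above 0 and none at an unadjusted p under 0.05. Mep1a, at 0.18 ± 0.10 and below the lower quartile on all arrays, had the smallest p there, followed by Adamts3, at -0.20 ± 0.13, and Pcolce2, an enhancer of procollagen trimming, at 0.22 ± 0.14.

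Collagen receptors lay closer to 0, with 12 of 13 measured. Between 7-day and 3-day skin 6 lay above 0 and 6 below, with a median of 0.00. Mrc2, which takes up collagen for breakdown, was the 1 receptor of 12 at an unadjusted p under 0.05, where it was lower. Of all genes 4.43% were lower and 5.33% higher at that threshold, so 1 of 12 is near the background. Without 3-day replicate 1 the receptor counts were 3 lower and 1 higher. Mrc2 had 7.54, 7.28, 7.45 and 7.70 in 7-day skin, 7.89, 7.99, 7.81 and 7.84 in 3-day skin, and 7.30 and 7.55 in control skin. Its log2 difference was -0.39 ± 0.10 between 7-day and 3-day skin (adjusted p = 0.276, limma), while the integrin genes Itga2 and Itga1 had 0.18 ± 0.09 and -0.17 ± 0.08. In 3-day skin against control 7 of 12 lay above 0, with a median of 0.07. Mrc2 had 0.46 ± 0.12 (adjusted p = 0.303), Ddr2, a kinase receptor for fibrillar collagen, 0.37 ± 0.13 and Adgrg6, a receptor for type IV collagen, 0.32 ± 0.14. These 3 receptors were those at an unadjusted p under 0.05, against 5.67% of all genes higher, and without control replicate 1 the count was 1. In 7-day skin against control the median was 0.04 (0.01 without control replicate 1), with none at an unadjusted p under 0.05. Adgrg6, Ddr2 and Adgrg1, a receptor for type III collagen, had the smallest p there, with 0.29 ± 0.14, 0.21 ± 0.13 and -0.20 ± 0.13.

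**Figure D5:**
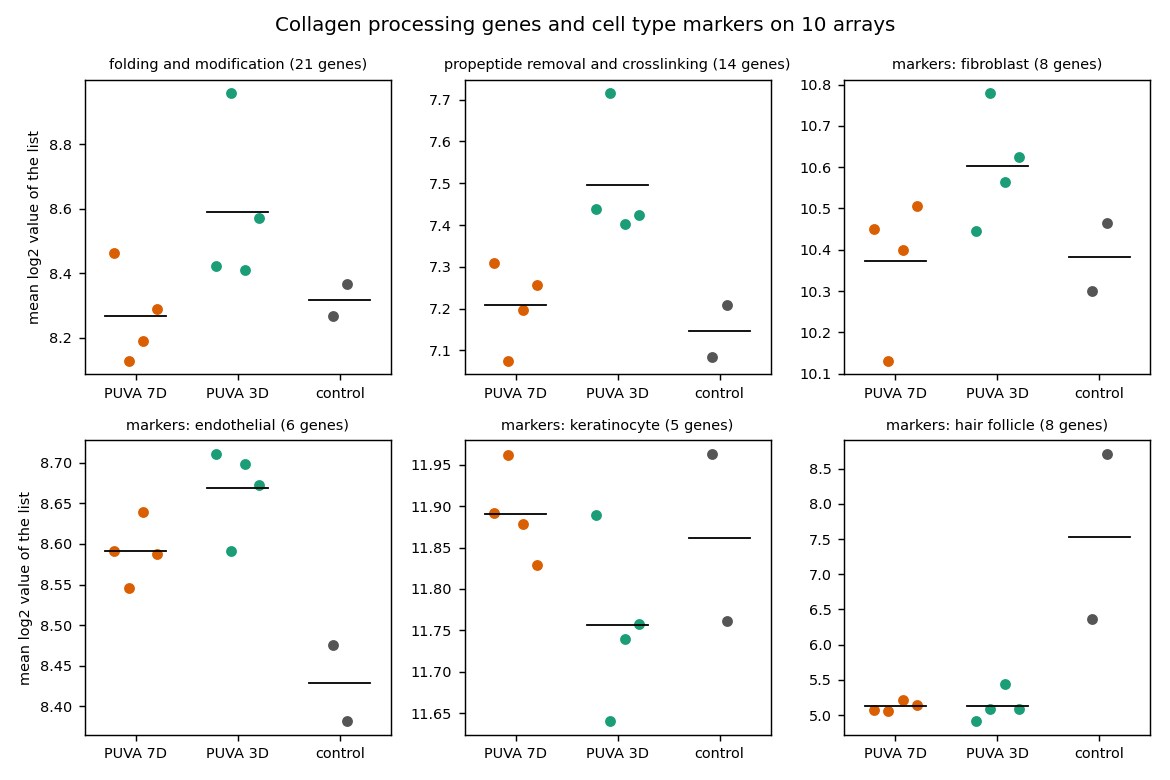
Mean log2 value (y axis, a separate range for each panel) of 2 lists of collagen processing genes and 4 lists of cell type markers on each array, by group (x axis). Points are arrays and lines are group means. The 3-day arrays lie above the 7-day and control arrays for trimming and crosslinking genes, and control hair follicle means, 6.36 and 8.71, lie above all PUVA arrays.

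Of the 44 collagen genes, 3 had a second probe set. That of Col1a2 had a log2 difference of -1.0 ± 0.27 between 7-day and 3-day skin, and that of Col6a1 had -0.58 ± 0.18, close to the values of the brighter probe sets. The second probe set of Col5a1 differed in size, at -0.21 ± 0.11 against -0.92 ± 0.18 for the brighter one. Its PUVA groups overlapped, at 5.59 to 5.98 in 7-day and 5.87 to 6.20 in 3-day skin. In 7-day skin against control this second probe set differed in sign as well, at 0.31 ± 0.13 against -0.12 ± 0.22. Which transcripts the probe sets read was not analysed here.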

How the data were processed

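RNA of 10 skin samples was measured on Affymetrix gene arrays. Per the labels' protocols, a miRNeasy kit gave total RNA, DNase was used, and WT PLUS reagents made the labelled target. The authors deposited 41345 probe set values, taken as log2. For neither log base nor normalization do the sources used here give a statement, and the base was inferred from the range (1.08 to 13.5). Precision is limited by the number of arrays. GEO's platform annotation supplied gene names: 23521 probe sets had 1 symbol, 1814 several and 16010 no listed one. For 1082 genes with several probe sets the one with the highest mean was used. Of 22180 genes, 21994 had their Entrez identifier in RefSeq (GRCm38.p6).

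The limma package (3.58.1, R 4.3.3) fitted a mean per group to every gene on the 10 arrays. Its moderated test was two-sided, had 7 residual and 3.514 prior degrees of freedom, and used Benjamini-Hochberg adjustment over all genes. A single spread per gene is shared by all groups, so errors against control are too small where the controls are the most variable group. Lists, types and alternatives were written with earlier results of these data known, as were the members. Values per array are given for the 5 collagen genes with the smallest p in each comparison and a fixed set of 12, with up to 3 genes per list and comparison. Plod3, Fkbp10, Adamts2, Loxl2 and Itga10 were not analysed here. The fit was tested on simulated data. Also tried were leaving out the dimmest 30% of genes, other probe set choices, quantile normalization, median centring, trend and robust settings, array weights, only the groups compared, another threshold and leaving out each array.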

Additional observations from a re-analysis of the deposited data

Results flagged for a closer look

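In 88 groups of 4 arrays (44 genes in 2 PUVA groups), 7 held an array far from the rest, and chance alone flags about 1 group in 20. Col5a3 was 8.81 in 3-day replicate 2, with 7.89 to 7.93 in the other 3-day arrays. Col6a1 and Col6a2 were 9.93 and 8.86 in 7-day replicate 2, with 10.17 to 10.19 and 9.07 to 9.10 in the others. Col2a1 was 6.40 in 3-day replicate 3 (5.86 to 5.93 in the others), Col4a6 was 4.92 in 3-day replicate 4 (5.01 to 5.02), Col27a1 was 6.55 in 7-day replicate 4 (6.65 to 6.67) and Col20a1 was 6.85 in 7-day replicate 3 (7.01 to 7.03).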

How the results depend on the processing

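No collagen gene passed an adjusted p of 0.05 in limma under any processing of all 10 arrays, or with only the groups compared. With each array left out the count ran from 0 to 1 in every comparison: Col11a1 against control without control replicate 1, and Col5a2 between the PUVA groups without 3-day replicate 1. At an unadjusted p under 0.05 the counts were 3 for 7-day against control, 13 for 3-day against control and 17 for 7-day against 3-day skin. In the main fit 3.21% of all genes were higher and 2.68% lower in 7-day skin against control. In 3-day skin against control 5.67% were higher, and between the PUVA groups 4.43% were lower. Shares of all genes under the alternatives are not given here, so counts that move are not set against them. The 13 higher genes of 3-day skin were 8 with only the groups compared, and 3 to 14 with each array left out. The count of 17 lower between the PUVA groups stayed between 15 and 19 under every alternative. With every probe set as a feature the count is of probe sets, so a gene with several can be counted for each. These counts at an unadjusted p were added after seeing the data. The median log2 change over the 44 genes ran from -0.20 to -0.14 between 7-day and 3-day skin, from 0.08 to 0.18 for 3-day skin against control, and from -0.07 to 0.04, on both sides of 0, for 7-day skin against control. The fibrillar median of 3-day skin against control, 0.69, was 0.28 without control replicate 1. Causes were not tested. No paired analysis was possible because the labels give the groups no shared replicate numbers. Whether dim genes such as Col6a4 and Col19a1 lay above background was not analysed here. Leaving out the dimmest 30% of genes removed Col6a4 and also Col19a1, whose mean is lower still, so neither has a value there. Which other dim members it removed is not listed here.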

Other observations

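Several collagen genes are neighbours in the mouse genome. In the RefSeq table (GRCm38.p6) 8 pairs of collagen genes, holding 15 genes, have no protein-coding gene between them. Some neighbours that encode chains of 1 molecule, or of 1 fibril, had differences of like size between 7-day and 3-day skin. Col3a1 and Col5a2 had log2 differences of -0.87 and -0.78, Col4a1 and Col4a2 had -0.55 and -0.45, and Col6a1 and Col6a2 had -0.53 and -0.76. The neighbours Col4a3 and Col4a4, chains of a specialised basement membrane, had -0.02 and 0.07, and Col4a5 and Col4a6 had 0.04 and 0.14. In the type VI cluster, Col6a5 had -0.50 while its neighbours Col6a4 and Col6a6 had -0.15 and -0.19. Col9a1 and Col19a1, neighbours that encode chains of different collagens, were also alike and near 0, at 0.01 and 0.02. Likeness was not limited to neighbours. Col1a1 and Col1a2 had -0.90 and -0.76, and Col5a1 and Col5a2 had -0.92 and -0.78, while Col5a3 of the same type had -0.44. These are descriptions of single differences, and no test across neighbours was run.

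Control replicate 2, in which Col11a1 stood at 6.63 against 5.06 in control replicate 1, was also high in Acan, the aggrecan gene, at 6.71 against 4.63. Both genes are best known from cartilage. The other 7 cartilage markers were lower in control replicate 2: Matn1, for example, was 4.00 and Chad 4.78 in control replicate 2, against 4.67 and 5.21 in control replicate 1, and Col2a1 was 5.97 against 6.04. Among the hair markers Krt71 was 11.47 in control replicate 2 and 8.04 in control replicate 1, and Msx2 7.06 and 6.20.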
